A study of Sus scrofa with 32 samples.

Results

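The luminal epithelium (LE) is the single layer of cells that lines the uterine cavity, and its response to pregnancy on Day 14 is described here across the 12002 genes that the authors kept as detectable in LE, out of 30185 genes counted in the whole series. That table was used whole, and no difference between the groups was used here to choose among its genes; the cut-off by which it was made is not given in the sources used here. The libraries compared were LE from 4 pregnant gilts (libraries PL139, PL39, PL41 and PL43, each named for its gilt) and LE from 4 nonpregnant gilts (CL128, CL40, CL42 and CL78), called cyclic below. All were prepuberal gilts synchronized with eCG and hCG, and all were inseminated, the pregnant group with German Landrace semen and the cyclic group with the supernatant of centrifuged semen. In the pregnant gilts the endometrium was taken from hyperemic sites at which a conceptus had attached, after the conceptus had been lifted off. Cells were cut from stained frozen sections by laser capture microdissection and their RNA was sequenced with a low-input kit. Glands (GE), vessels (BV) and stroma (S) cut from the same gilts serve for comparison only, and no GE library of the gilt of PL41 was used here. In bulk RNA of this kind, fewer cells of a type and less RNA per cell cannot be told apart.

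The LE is the surface that the elongating conceptus touches, and in the pig it stays intact: the trophectoderm attaches to it but does not cross it. It is exposed to conceptus estrogens, interferons, interleukin 1 beta and prostaglandins, and it secretes fluid, ions, nutrients and adhesion proteins into the uterine lumen. Cholesterol is made from acetyl-CoA by the mevalonate pathway, whose genes are switched on together by the sterol regulatory element binding protein SREBF2 when sterols in the endoplasmic reticulum are low.

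The 8 LE libraries held between 3143100 and 7081556 counts, the latter in PL41, with 11.3% to 14.8% of the counts in ribosomal RNA genes. Every library lay nearest to a library of its own group over the 500 genes that differed most, with CL128 and CL78 lying farthest from the others of theirs. The 10 epithelial markers summed to 3364, 2989.6, 3376 and 3635 CPM (counts scaled to a common library total) in CL128, CL40, CL42 and CL78 and to 2623, 2428, 2743 and 2744 CPM in PL139, PL39, PL41 and PL43, the order in which library values are given throughout. These sums did not overlap and were lower in the pregnant group. Of the 10 markers the keratins KRT7 and KRT8 fell (KRT7 from 143 ± 48.9 CPM to 21.6 ± 8.12 CPM, KRT8 log2 fold change -1.60, SE 0.28, adjusted p = 0.00837), while CDH1, the adhesion protein of epithelial junctions, stood at 846, 825, 762 and 1025 CPM against 1205, 1201, 1129.7 and 1210.3 CPM. KRT7 and KRT8 were singled out after their values were seen, and both calls were lost with 1 library left out (adjusted p up to 0.0102 and 0.0257). KRT18 and KRT19 were also lower in every pregnant library than in any cyclic one. Their means went from 206 to 74.9 CPM and from 223 to 20.5 CPM, and that of KRT8 from 1029 to 339 CPM. The means of EPCAM and ESRP1 were lower too, but those of CDH1, CLDN4, ELF3 and SPINT1 were higher in pregnant LE. The markers thus differed in both directions. Whether the lower sum reflects less epithelial RNA was not tested.

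RNA of other cell types was present in the LE libraries. The 10 fibroblast markers summed to 15777, 11662, 15603 and 4826 CPM and to 11731, 18822, 15779.6 and 11702 CPM, so that the groups overlapped and CL78 lay lowest, and on a common scale their mean was 13503 CPM in LE, 5664 CPM in GE and 81536 CPM in S. The sums of 8 endothelial markers were 309.6, 723, 660.4 and 133 CPM and 436, 1036, 813 and 793 CPM. For 12 leukocyte markers they were 130.4, 123, 151 and 75.7 CPM and 125, 237, 204 and 154 CPM. Of 5 gland markers ACP5, an acid phosphatase, measured 28.5, 173, 213 and 402 CPM against 805, 207, 393 and 281 CPM, with a mean on the common scale of 316 CPM in LE and 3515 CPM in GE. RBP4, the retinol binding protein, measured 7.13, 556, 905 and 1821 CPM against 3821, 2849, 4539.5 and 3112 CPM, but went against its place in the list with a mean of 2239 CPM in LE and 1536 CPM in GE, while FOXA2, MUC6 and BHMT were under 10 CPM in every library. The sums of smooth muscle markers ranged from 212 to 484 CPM in cyclic and from 200.1 to 269.8 CPM in pregnant LE, those of ciliated cells from 67.4 to 182 and from 32.2 to 176 CPM, those of erythrocytes from 58.6 to 179.8 and from 37.3 to 84.7 CPM, and those of 8 trophectoderm genes from 3.36 to 24.6 and from 14.1 to 23.4 CPM. Only markers among the detectable LE genes were tested for a difference between the groups. Outside the epithelial list these left out many: 2 of 5 gland, 5 of 8 smooth muscle and 4 of 12 leukocyte markers were tested. So were 5 of 10 ciliated, 1 of 8 trophectoderm and 1 of 4 erythrocyte markers. None of those tested differed at a false discovery rate of 1%, and at 5% 1 smooth muscle marker was higher and 1 lower in pregnant LE. The 1 trophectoderm marker tested was PAG1, which made up most of the trophectoderm sum in every library other than PL43. PAG1 was higher in BV and S than in LE, with means of 78.3, 44.5 and 16.2 CPM. It also measured 19.8, 19.3, 24.0 and 2.88 CPM in cyclic LE, from gilts without a conceptus. Neither its test nor the sums can therefore show whether conceptus RNA was present. The other trophectoderm genes, HAND1 and IFNG among them, were not tested. IL1B2, CYP17A1, CYP19A1 and CDX2 of the conceptus had no count, but PL43 held HAND1, a transcription factor, at 2.93 CPM, against 0.644 CPM in PL39 and 0 in the others, and IFNG, an interferon that pig trophectoderm secretes, at 10.1 CPM, against at most 1.89 CPM in the other LE libraries. The part of these transcripts in the results below was not tested.

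Pregnancy changed the LE in both directions. Of the 12002 genes, 398 were differentially expressed (DEG) at a false discovery rate of 1% (edgeR quasi-likelihood test), which is 3.32% of the genes tested. The level was higher in pregnant LE for 243 of them, or 2.02%, and lower for 155, or 1.29%. At a rate of 5% there were 1288 DEG, or 10.7%, of which 748 (6.23%) were higher and 540 (4.5%) lower. The pregnant and cyclic values did not overlap in any of the 398, against 19.6% of all genes tested, and 123 of the higher and 65 of the lower genes changed by at least 4-fold. The median log2 fold change (pregnant minus cyclic) of all genes was -0.01.

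**Figure D1:**
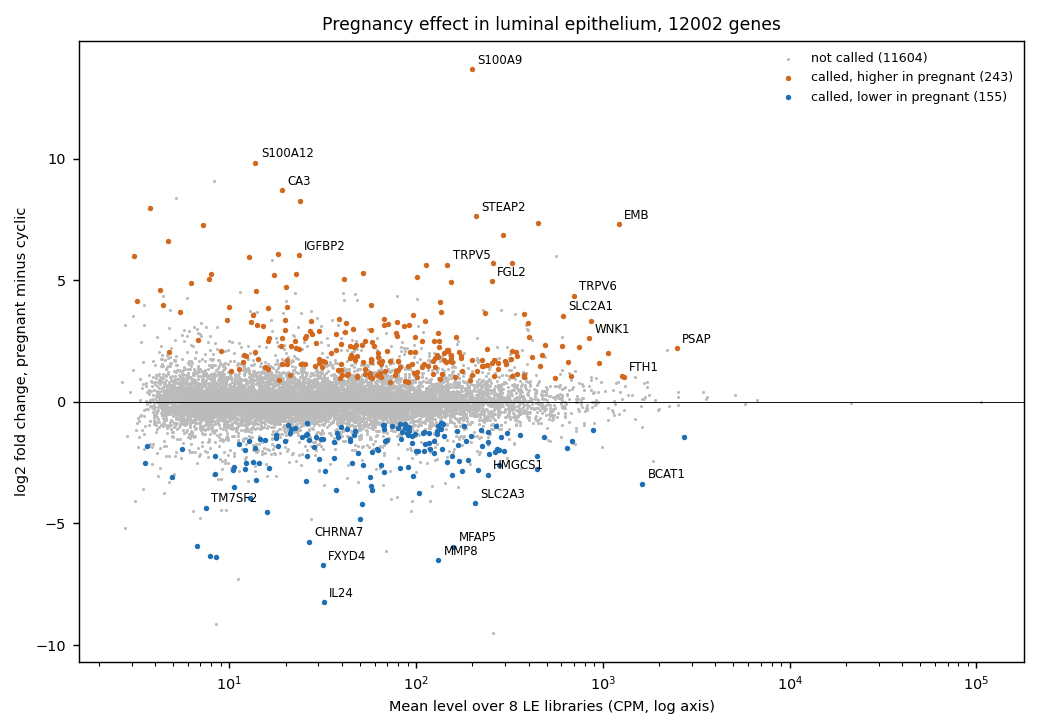
Log2 fold change, pregnant minus cyclic, of each of the 12002 LE genes (vertical axis) against its mean level over 8 libraries in CPM (horizontal log axis), with DEG at 1% in orange (243 higher in pregnant) and blue (155 lower). Large changes reach from weakly counted genes such as CA3 to strongly counted ones such as EMB, PSAP and BCAT1; the height of genes with no count in cyclic LE, such as S100A9, is set by the prior count of the fit.

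The same 398 genes were all DEG at 1% with a likelihood ratio test in edgeR after robust estimation of dispersion and with DESeq2, which called 1411 and 1342 genes in all. The number depended on single libraries: 395, 101, 113 and 439 genes were called without CL128, CL40, CL42 and CL78, and 138, 105, 310 and 117 without PL139, PL39, PL41 and PL43. Of the 398 genes, 76 were called in all 8 of these reduced comparisons, and each of the 398 kept its direction and an adjusted p under 0.05 in every one. Below, a gene said to have risen or fallen is one of the 398, and each group of genes is given with the number of its DEG that stayed DEG whichever library was left out. The counts of each group are to be set beside the shares of all genes. These were 2.02% higher and 1.29% lower at 1%, and 6.23% higher and 4.5% lower at 5%.

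Cholesterol genes fell together. Of 28 detectable genes of cholesterol synthesis and uptake, 12 fell, against 1.29% of all genes, none rose at 1%, and 25 had a negative log2 fold change. The median of the list was -1.57 on the log2 scale, against -0.01 for all genes. At 5% the number that fell was 18. In every one of the 12 DEG all pregnant libraries lay below all cyclic ones, but the groups did not overlap in any of the 398 DEG.

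The fall ran along the pathway. ACAT2, the cytosolic enzyme that joins acetyl-CoA units, stood at 55.7, 58.7, 59.5 and 68.1 CPM in cyclic and 15.1, 12.9, 11.7 and 9.44 CPM in pregnant LE (log2 fold change -2.30, SE 0.18, adjusted p = 0.000309). HMGCS1 (NCBI gene 100524223), which makes HMG-CoA, dropped from 480.1, 382, 425 and 429 CPM to 42.9, 56.01, 53.9 and 62.5 CPM (log2 fold change -2.99, SE 0.17, adjusted p = 7.11e-05). Both of these early enzymes were lower in each pregnant gilt by a wide margin.

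MVD, which decarboxylates mevalonate diphosphate, fell from 17.3 ± 5.45 CPM to 5.15 ± 0.544 CPM (SD, n = 4). SQLE, the epoxidase that commits squalene to sterols, stood at 136, 161, 209 and 239.7 CPM in cyclic LE and 55.9, 65.02, 32.2 and 44.2 CPM in pregnant LE, and LSS, which closes the sterol ring, fell from 42.6 ± 3.65 CPM to 15.8 ± 5.26 CPM. Past the first sterol, lanosterol, each enzyme that removes methyl groups or rearranges double bonds and reached the threshold also fell. CYP51, the lanosterol demethylase, stood at 250.2, 239.9, 227 and 269 CPM and 43.5, 43.1, 35.7 and 56.6 CPM (log2 fold change -2.46, SE 0.18, adjusted p = 0.000156). MSMO1, the methyl sterol oxidase, went from 318 ± 62.7 CPM to 61.1 ± 7.64 CPM (log2 fold change -2.38, SE 0.20, adjusted p = 0.000376). TM7SF2, a sterol reductase, had the largest fold change of the list, 22.96, 14.3, 10.3 and 9.59 CPM against 1.35, 0, 0.427 and 0.976 CPM (log2 fold change -4.36, SE 0.61, adjusted p = 0.00367), but rests on few counts. EBP, the sterol isomerase, fell 3.06-fold and SC5D, the desaturase near the end of the route, 2.88-fold. STARD4, which carries cholesterol between membranes, went from 56.9 ± 9.68 CPM to 8.10 ± 3.04 CPM (log2 fold change -2.83, SE 0.28, adjusted p = 0.00105). The levels of the early and late enzymes thus fell side by side. Of the 12 DEG, 6 stayed DEG whichever library was left out, namely HMGCS1, CYP51, ACAT2, MSMO1, STARD4 and SC5D. For the other 6 the adjusted p reached at most 0.0259. EBP, SQLE, MVD and LSS are DEG of the list named after their values were seen.

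**Figure D2:**
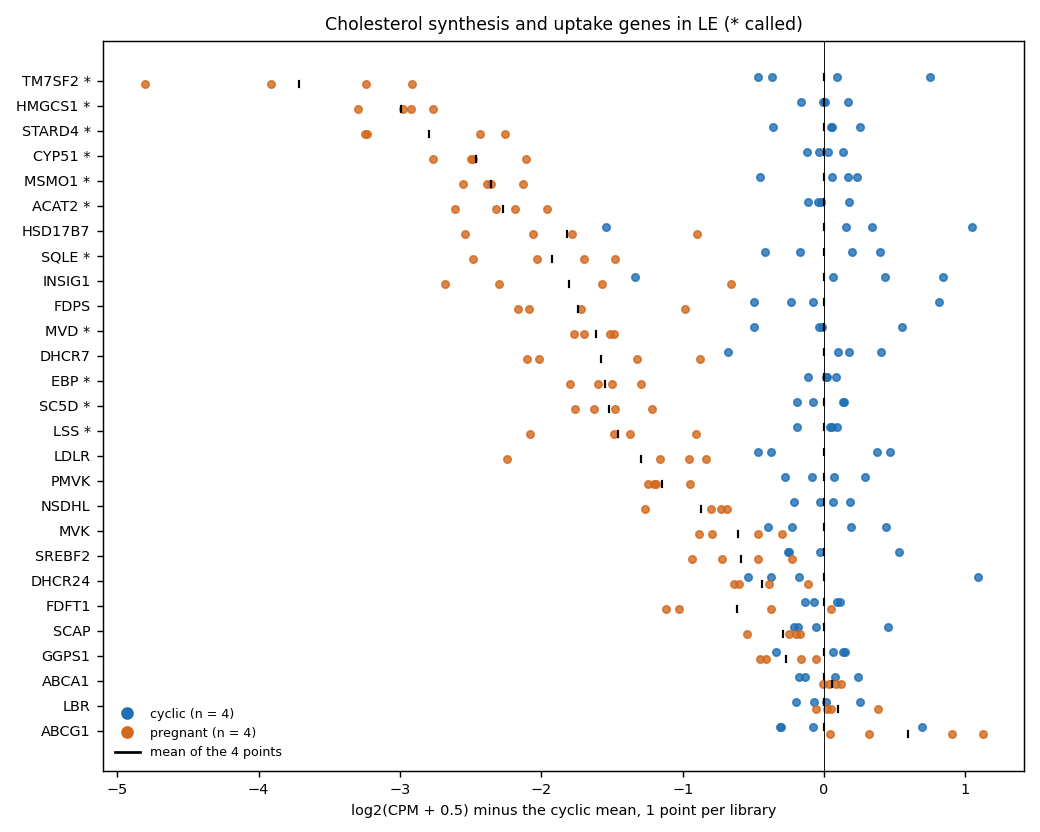
Log2(CPM + 0.5) of 27 of the cholesterol genes relative to the cyclic mean of each gene (horizontal axis), 1 point per library, cyclic in blue and pregnant in orange, with the mean of each group as a black tick and an asterisk on the 11 DEG among them. The orange points lie to the left of the blue ones over the upper part of the plot, and the groups run together towards the bottom, where the exporters ABCA1 and ABCG1 stand.

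The promoters of the cholesterol list were searched for sequence motifs that played no part in the choice of the list. The sequence read was the 250 bases before the annotated start of each gene in Sscrofa11.1 (RefSeq annotation), for 27 of the 28 cholesterol genes and 11799 LE genes in all. A sterol regulatory element, searched as TCACNCCAC on both strands, occurred in 3 of the 27 (11.11%), HMGCS1 and SREBF2 among them, against 0.771% of all 11799. The CCAAT box, the motif of the factor NF-Y, searched as CCAAT on both strands, occurred in 21 of the 27 (77.8%) against 32.6% of all. Among the 11 DEG of the list with a promoter, 2 held the sterol element (18.2%) and 8 the CCAAT box (72.7%). Among all 394 DEG with a promoter the shares were 1.27% and 35.0%, so the CCAAT share of the list was not higher in its DEG. The sequences of HMGCS1 and STARD4 are shown because both genes stayed DEG whichever library was left out and each holds 3 CCAAT boxes, HMGCS1 with the 9-letter element and STARD4 without it; they are written 5′ to 3′ on the strand of the gene, ending at the base before its start, with both motifs on either strand in capitals (ATTGG is CCAAT on the other strand).
HMGCS1 (chr16:27957262-27957511, minus strand): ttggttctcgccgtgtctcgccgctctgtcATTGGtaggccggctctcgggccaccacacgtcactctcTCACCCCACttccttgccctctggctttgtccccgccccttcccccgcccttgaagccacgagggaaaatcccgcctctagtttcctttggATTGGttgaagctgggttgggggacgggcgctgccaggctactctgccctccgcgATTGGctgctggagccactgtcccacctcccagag
STARD4 (chr2:116257144-116257393, minus strand): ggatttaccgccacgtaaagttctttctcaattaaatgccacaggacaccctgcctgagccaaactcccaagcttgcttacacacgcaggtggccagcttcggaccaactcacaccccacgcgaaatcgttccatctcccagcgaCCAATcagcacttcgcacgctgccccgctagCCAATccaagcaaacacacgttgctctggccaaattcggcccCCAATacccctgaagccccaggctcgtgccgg
In HMGCS1 the 9-letter element began at position -181 from the gene start, and in SREBF2 at -93. The DEG CYP51, MSMO1 and SC5D held neither motif in this window. A match is a stretch of letters and was not examined for binding.

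Fatty acid genes changed in both directions. Of 35 detectable genes of fatty acid synthesis, storage and oxidation, 3 fell, 2 rose, and the list median lay within 0.01 of 0 on the log2 scale. Both desaturases that reached the threshold fell: SCD, which makes oleate, from 99.5 ± 14.4 CPM to 25.2 ± 10.6 CPM (log2 fold change -1.99, SE 0.29, adjusted p = 0.00416), and FADS1, on the route to arachidonic acid, from 21.6 ± 2.08 CPM to 5.71 ± 1.07 CPM (log2 fold change -1.91, SE 0.21, adjusted p = 0.0016). ELOVL4, which elongates very long chains, fell 3.80-fold, while ELOVL6, which elongates palmitate, rose 1.77-fold. PNPLA2, the lipase that starts the breakdown of stored triglyceride, stood at 18.7, 16.1, 20.02 and 25.9 CPM and rose to 72.4, 60.8, 39.7 and 62.1 CPM (log2 fold change 1.54, SE 0.23, adjusted p = 0.00473). FADS1 alone stayed DEG whichever library was left out, and the adjusted p of the other 4 reached at most 0.0312. ELOVL6 lost the call in all 8 reduced comparisons, its lowest adjusted p being 0.0166.

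Both epithelial calcium entry channels rose. TRPV5 and TRPV6 are the epithelial calcium channels of the apical membrane, and they lie side by side on chromosome 18 with overlapping annotation (TRPV5 chr18:7285186-7341965, TRPV6 chr18:7332253-7348383). TRPV5 stood at 5.81, 4.998, 6.29 and 5.99 CPM in cyclic LE and 273, 302, 208 and 367 CPM in pregnant LE, 49.6-fold higher (log2 fold change 5.63, SE 0.23, adjusted p = 1.44e-05), the smallest p of all 12002 genes. TRPV6 rose from 54.4, 43.03, 48.3 and 112 CPM to 1439.6, 1378, 921 and 1579.9 CPM (log2 fold change 4.36, SE 0.37, adjusted p = 0.000441). For both channels the groups were far apart, and CL78 had the highest cyclic TRPV6. Reads of these similar, overlapping genes may be shared between them, since the strand used in counting is not given in the sources used here. ATP2B4, a plasma membrane pump that moves calcium out of the cell, fell from 430.0 ± 183 CPM to 113 ± 18.4 CPM (log2 fold change -1.92, SE 0.30, adjusted p = 0.00572). These were the only DEG among the 17 detectable calcium transport genes, and both channels stayed DEG whichever library was left out, while ATP2B4 reached an adjusted p of 0.0244.

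Genes of sodium, chloride and potassium transport changed in both directions. Of 29 detectable genes of this list, 4 fell and 2 rose, and the list median lay within 0.01 of 0. ATP1B1, the beta subunit of the Na+/K+ pump, went from 452, 565, 419.8 and 282 CPM in cyclic LE to 99.9, 69.2, 98.3 and 139.2 CPM in pregnant LE (log2 fold change -2.08, SE 0.27, adjusted p = 0.00302). FXYD4, a small regulator of the same pump, fell from 176, 29.6, 32.9 and 13.2 CPM to 0, 0.322, 0.996 and 0.651 CPM (log2 fold change -6.72, SE 1.07, adjusted p = 0.00625), and the log2 fold change was -5.42 without CL128 and -7.53 without PL41. SCNN1G, the gamma subunit of the epithelial sodium channel, dropped from 28.6 ± 10.5 CPM to 4.06 ± 2.91 CPM (log2 fold change -2.72, SE 0.48, adjusted p = 0.009; log2 fold change -3.39 without PL41). ATP1B1, FXYD4 and SCNN1G were thus lower in each pregnant gilt than in any cyclic gilt.

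WNK1, a kinase that regulates chloride-coupled sodium and potassium transporters, rose with very little spread, from 233, 236, 209 and 266 CPM to 1440.1, 1457, 1369 and 1523 CPM (log2 fold change 2.62, SE 0.16, adjusted p = 7.11e-05). The chloride channel CFTR was not a DEG: it measured 74.2, 38.03, 28.03 and 42.7 CPM in cyclic and 16.5, 19.3, 8.25 and 9.76 CPM in pregnant LE, with no overlap (log2 fold change -1.78, SE 0.37, adjusted p = 0.0175). It passed 1% by the likelihood ratio test after robust estimation of dispersion (adjusted p = 2.86e-05) and by DESeq2 (adjusted p = 0.000175). WNK1 stayed DEG whichever library was left out, and the 4 genes that fell reached adjusted p values of at most 0.0301. Of 12 detectable water channel and bicarbonate genes, CA3 rose and none fell. CA3, a carbonic anhydrase best known from muscle, had 1 count over the cyclic libraries and 622 over the pregnant ones (29.2, 33.8, 33.4 and 56.6 CPM), a ratio of 591-fold (95% counting interval 106 to 23366) that covers counting error only, and it stayed DEG whichever library was left out.

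Both glucose transporters that changed did so in opposite directions. SLC2A1 (GLUT1), the transporter found in most tissues, stood at 77.1, 106, 102 and 102 CPM in cyclic LE and 1508, 1191, 621 and 1187 CPM in pregnant LE, 11.6-fold higher (log2 fold change 3.54, SE 0.29, adjusted p = 0.000376). SLC2A3 (GLUT3), a transporter of high affinity, did the reverse, with 399, 399, 484 and 274 CPM against 17.6, 24.5, 25.8 and 18.9 CPM, 17.9-fold lower (log2 fold change -4.16, SE 0.24, adjusted p = 7.11e-05). No cyclic library of either gene came near the pregnant range. SLC43A2, a carrier of large neutral amino acids, rose from 13.7 ± 4.35 CPM to 127 ± 62.5 CPM (log2 fold change 3.21, SE 0.42, adjusted p = 0.00307). Of the 33 detectable glucose and amino acid transporters these 3 were the DEG, and the 2 glucose transporters stayed DEG whichever library was left out, SLC43A2 reaching 0.0148.

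BCAT1, the cytosolic enzyme that starts the breakdown of leucine, isoleucine and valine, was among the most strongly counted genes of cyclic LE, with 2177, 3241, 3182 and 3228 CPM, and fell to 147, 197, 556 and 251 CPM in pregnant LE (log2 fold change -3.36, SE 0.43, adjusted p = 0.00255). Of 33 detectable glycolysis, pyruvate and lactate genes, 2 rose and none fell. PFKFB3, which makes the activator of phosphofructokinase, rose from 8.45, 8.91, 17.2 and 6.95 CPM to 93.99, 71.5, 54.4 and 106 CPM (log2 fold change 2.98, SE 0.33, adjusted p = 0.00162). PDK2, a kinase that inactivates pyruvate dehydrogenase, rose 2.57-fold. PFKFB3 stayed DEG in every reduced comparison, whereas PDK2 and BCAT1 reached adjusted p values of 0.0292 and 0.0127.

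Among 21 detectable genes of prostaglandin synthesis, breakdown and reception, HPGD and PTGR1 were the DEG. HPGD, which oxidizes prostaglandins as the first step of their inactivation, went from 769 ± 346 CPM to 114 ± 54.7 CPM (log2 fold change -2.76, SE 0.48, adjusted p = 0.00845). PTGR1, the reductase that acts after HPGD, moved the other way, with 3.96, 5.22, 7.72 and 9.11 CPM in cyclic and 29.7, 25.4, 43.7 and 27.004 CPM in pregnant LE (log2 fold change 2.28, SE 0.31, adjusted p = 0.00317). The oxytocin receptor OXTR, which drives the release of luteolytic prostaglandin, was not a DEG: it stood at 2.38, 383, 201 and 9.59 CPM in cyclic and 8.91, 4.83, 20.5 and 3.90 CPM in pregnant LE (log2 fold change -3.90, SE 1.33, adjusted p = 0.0905). It passed 1% by the likelihood ratio test (adjusted p = 0.00205) but not by DESeq2 (adjusted p = 0.0194). CL40 and CL42 were high in OXTR, while CL78 lay within the pregnant range and CL128 below it. Neither HPGD nor PTGR1 stayed DEG in every reduced comparison, with adjusted p values of up to 0.0293 and 0.0148.

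Integrin subunits, a connexin and the mucin MUC1 rose. ITGAV, the alpha v integrin that binds osteopontin and fibronectin, stood at 348, 163, 143 and 135 CPM in cyclic and 947, 774, 599 and 687 CPM in pregnant LE (log2 fold change 1.93, SE 0.33, adjusted p = 0.00792). Its partner ITGB5 rose from 34.7 ± 7.37 CPM to 111 ± 17.02 CPM (log2 fold change 1.67, SE 0.20, adjusted p = 0.00202). ITGB3, another partner of ITGAV, lay close to the threshold, with 0.264, 2.17, 7.72 and 5.27 CPM against 83.7, 40.2, 23.8 and 55.3 CPM (log2 fold change 3.72, SE 0.68, adjusted p = 0.0102), and became a DEG (adjusted p 0.00851) without CL128. The list gave 3 rises, ITGAV and ITGB5 among them, and no fall among 27 detectable integrin and ligand genes. ITGB5 stayed DEG whichever library was left out, and ITGAV reached an adjusted p of at most 0.0312.

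Of 35 detectable junction genes 3 rose and none fell. GJB5 (chr6:90999514-91003301), a connexin of gap junctions, had 1 count in all cyclic libraries together and 84 in the pregnant ones (6.48, 9.01, 1.28 and 7.48 CPM), a ratio of 79.8-fold (95% counting interval 13.9 to 3188). Each of the 3 genes lost the call in at least 1 reduced comparison, with adjusted p values of at most 0.0342. CDH17, an intestinal cadherin, was not a DEG: it measured 1917, 80.4, 46.9 and 25.9 CPM in cyclic and 0.54, 0.644, 1.14 and 0 CPM in pregnant LE (adjusted p = 0.0138), and CL128 stood far above the other cyclic libraries. Without CL128 or CL78 it was a DEG, the smaller adjusted p being 0.00131.

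MUC1, the membrane mucin of the apical surface, was the 1 DEG of 29 detectable mucin genes and went up, from 100.3, 158, 139.8 and 173 CPM to 485, 385, 554 and 389 CPM (log2 fold change 1.67, SE 0.22, adjusted p = 0.00289), with an adjusted p of up to 0.0131 when a library was left out. MUC4, another membrane mucin, measured 13.7, 67.8, 84.1 and 148 CPM in cyclic and 1003, 758, 448 and 559 CPM in pregnant LE (adjusted p = 0.013), again without overlap, and it was a DEG without CL128 or CL78 (smaller adjusted p 0.0045). At 5%, 7 members of the mucin list were higher in pregnant LE and 2 lower, against 6.23% and 4.5% of all genes.

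The alarmin genes split. S100A9 and S100A12, calcium-binding proteins best known from neutrophils, lie next to each other on chromosome 4 (S100A12 chr4:96225691-96227030, S100A9 chr4:96236114-96238989) and had no count in any cyclic LE library. S100A12 was counted 424 times over the pregnant libraries, at 52.9, 24.5, 12.9 and 19.8 CPM, at least 134-fold higher when the cyclic group is set to a floor of 3 counts over its libraries. S100A9 was at least 1799-fold higher on the same footing, with 5684 counts. S100A6 and S100A11, members of the same family that most epithelia carry, fell, S100A6 from 179.7 ± 24.7 CPM to 79.2 ± 19.995 CPM (log2 fold change -1.18, SE 0.21, adjusted p = 0.00911) and S100A11 from 138 ± 24.5 CPM to 52.1 ± 15.7 CPM (log2 fold change -1.40, SE 0.24, adjusted p = 0.00778). The 4 were the DEG among 24 detectable alarmin and defence genes, and none of them stayed DEG in every reduced comparison, the highest adjusted p being 0.0349. SAA3, a serum amyloid A protein of the acute phase, was also nearly absent from cyclic LE, with 2 counts there and 27.01, 68.9, 3.13 and 90.8 CPM in pregnant LE.

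Cytokine genes changed in both directions. Of 35 detectable genes of the interleukin, LIF and TNF families, 3 rose and 2 fell, against 2.02% and 1.29% of all genes. TNFRSF21, the death receptor DR6, stood at 19.005, 32.8, 31.2 and 24.2 CPM and 122, 121, 114 and 96.95 CPM (log2 fold change 2.08, SE 0.20, adjusted p = 0.0009). IL6R, the interleukin 6 receptor, rose from 5.81, 11.08, 12.3 and 17.7 CPM to 187, 127.8, 39.8 and 138 CPM (log2 fold change 3.38, SE 0.50, adjusted p = 0.00429). STAT5B, a transcription factor downstream of cytokine receptors, rose 2.29-fold. IL24, a cytokine of the interleukin 10 family, was nearly lost, with 100.04, 72.6, 74.4 and 8.87 CPM in cyclic LE and 3 counts in all pregnant libraries together, a ratio of 355-fold (95% counting interval 121 to 1722). IL17RD, which restrains FGF signalling, fell from 478 ± 248 CPM to 77.96 ± 38.5 CPM (log2 fold change -2.61, SE 0.47, adjusted p = 0.00957). TNFRSF21 stayed DEG whichever library was left out, and the others reached adjusted p values of at most 0.035. The chemokine scavenger ACKR4 fell 5.78-fold, the 1 DEG of 9 detectable chemokine genes, with adjusted p values of up to 0.0188.

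Of 62 detectable interferon-stimulated and antigen presentation genes, 3 rose and none fell, all of them on the side of antigen presentation. SLA-2, a classical class I gene of the swine leukocyte antigen complex, stood at 172, 149, 151 and 163 CPM in cyclic and 3384, 962, 474 and 1441 CPM in pregnant LE (log2 fold change 3.30, SE 0.54, adjusted p = 0.00672; log2 fold change 2.59 without PL139). SLA-3, a second class I gene whose annotation lies inside that of SLA-2 on chromosome 7 (chr7:22938211-22942735), rose from 156, 147, 165 and 179 CPM to 1120.1, 953, 355 and 824 CPM (log2 fold change 2.33, SE 0.32, adjusted p = 0.0036). Cyclic values of both genes were tight, and the pregnant ones were spread, with PL139 highest and PL41 lowest. Class I genes are close copies of each other, so that the share of reads each received is uncertain. IFI30, a lysosomal reductase that prepares antigens, rose from 25.2 ± 7.86 CPM to 78.4 ± 20.5 CPM (log2 fold change 1.64, SE 0.29, adjusted p = 0.0091). None of the 3 stayed DEG in every reduced comparison (adjusted p at most 0.029). The list median was 0.07 on the log2 scale, and 3 of 62 lies near the 3.32% of all genes.

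Growth factor pathways held 5 DEG, read against the 3.32% of all genes that were DEG. FGF9, a fibroblast growth factor 9.62-fold higher in pregnant LE, and FOSL2, an AP-1 factor induced by growth factors, were 2 rises without a fall among 37 detectable FGF and EGF genes, FOSL2 going from 93.7, 207, 173 and 342 CPM to 1035, 1112, 678 and 1178 CPM (log2 fold change 2.29, SE 0.38, adjusted p = 0.00673). ACVR1, a type I receptor for activins and BMPs, rose from 61.5 ± 8.96 CPM to 142 ± 11.03 CPM (log2 fold change 1.21, SE 0.15, adjusted p = 0.00251), and TGFBR3, the co-receptor betaglycan, rose 1.83-fold, out of 35 detectable genes of the TGF-beta superfamily. Of 33 detectable Wnt genes only FZD6, a Wnt receptor, was a DEG, and it fell from 174 ± 20.4 CPM to 86.6 ± 8.77 CPM (log2 fold change -1.01, SE 0.15, adjusted p = 0.00466). All 5 lost the call in at least 1 reduced comparison, with adjusted p values of at most 0.0268.

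Of 31 detectable steroid receptor and enzyme genes none was a DEG at 1%, with 11 members at an unadjusted p under 0.05 and, at 1%, 1 higher and 2 lower by the likelihood ratio test and by DESeq2 alike. ESR2, estrogen receptor beta, had no count in any cyclic LE library and 144 counts over the pregnant ones, at 15.9, 16.7, 1.71 and 6.83 CPM, at least 45.6-fold higher against the floor of 3 counts (adjusted p = 0.0179). PL41 was lowest, and without it ESR2 was a DEG (adjusted p 0.0067). DHRS3, which turns retinal back to retinol, rose from 19.9 ± 9.88 CPM to 98.9 ± 30.8 CPM (log2 fold change 2.31, SE 0.38, adjusted p = 0.00682) as the 1 DEG of 20 detectable retinoid genes, with adjusted p values of up to 0.0249 when a library was left out. CYP26A1, which degrades retinoic acid, measured 491, 97.8, 326 and 323 CPM in cyclic and 4.32, 1.93, 73.6 and 26.03 CPM in pregnant LE, without overlap but with an adjusted p of 0.0509.

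Among 54 detectable transcription factors of the uterine epithelium, 3 rose and 2 fell. FOXP1, a forkhead repressor, stood at 59.4, 112, 96.95 and 169.7 CPM in cyclic and 972, 730.4, 423 and 634 CPM in pregnant LE (log2 fold change 2.65, SE 0.36, adjusted p = 0.00327). KLF9, a progesterone receptor partner in the uterus, went from 6.69 ± 4.70 CPM to 38.01 ± 5.36 CPM (log2 fold change 2.50, SE 0.40, adjusted p = 0.00667; log2 fold change 3.12 without CL78), and NOTCH2, a receptor that becomes a transcription regulator, from 439 ± 26.02 CPM to 915 ± 130.2 CPM (log2 fold change 1.06, SE 0.16, adjusted p = 0.00539). PAX2, a factor of Müllerian duct epithelium, fell from 364, 236, 279 and 243 CPM to 84.5, 64.1, 117 and 96.95 CPM (log2 fold change -1.63, SE 0.23, adjusted p = 0.00369). SALL1, a zinc finger repressor, fell from 140.0 ± 9.22 CPM to 56.1 ± 14.9 CPM (log2 fold change -1.31, SE 0.20, adjusted p = 0.00461). The groups did not overlap in any of the 5, as in all 398 DEG, and each of the 5 lost the call in at least 1 reduced comparison, with adjusted p values of at most 0.0246.

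Clock genes rose without a fall. Of 23 detectable genes of the circadian clock 3 rose, against 2.02% of all genes. At 5% the number was 9, against 6.23% of all genes, again with none lower, while the list median was 0.48. At 1% the likelihood ratio test gave 9 higher and 1 lower, and DESeq2 9 higher and 0 lower. Of the 23 genes 5 had a negative log2 fold change. NR1D2, or REV-ERB beta, a repressor of the clock loop, stood at 89.7, 115, 97.2 and 105 CPM in cyclic and 260.4, 227, 247 and 260.0 CPM in pregnant LE (log2 fold change 1.29, SE 0.14, adjusted p = 0.0016). BHLHE40 (DEC1), another repressor, rose from 44.8 ± 10.6 CPM to 120.0 ± 14.4 CPM (log2 fold change 1.42, SE 0.19, adjusted p = 0.00327), as did NR1D1. NR1D2 stayed DEG whichever library was left out, and the other 2 reached at most 0.0334. The hour at which each gilt was sampled is not given in the sources used here, and its part in these values was not tested.

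Genes of iron handling and of the lysosome that reached the threshold all rose. STEAP2, a metalloreductase that reduces iron and copper, stood at 3.43, 1.09, 1.14 and 2.64 CPM in cyclic and 466, 443, 208 and 554 CPM in pregnant LE, 199-fold higher (log2 fold change 7.64, SE 0.49, adjusted p = 7.11e-05). FTH1, the heavy chain of the iron store ferritin, rose from 845 ± 84.1 CPM to 1734 ± 289 CPM (log2 fold change 1.04, SE 0.18, adjusted p = 0.00885). PSAP, the precursor of the saposins that help lysosomes degrade sphingolipids, went from 336, 830.1, 1037 and 1326 CPM to 4226, 3257, 5249 and 3606 CPM (log2 fold change 2.21, SE 0.39, adjusted p = 0.00911). With a short gene record named STEAP1 (chr5:8996943-8997498), which may not be the STEAP1 gene proper, these were 4 rises and no fall among 41 detectable lysosomal and iron genes, and the list median was 0.61. STEAP4, a relative of STEAP2, measured 255, 59.1, 66.9 and 65.4 CPM in cyclic and 12.7, 12.2, 25.04 and 17.6 CPM in pregnant LE (adjusted p = 0.0138), and ceruloplasmin (CP), the copper ferroxidase, 92.9, 372, 196 and 61.4 CPM and 17.3, 0.644, 9.25 and 3.90 CPM (adjusted p = 0.011). Both lay lower in every pregnant library and became DEG without CL128 for STEAP4 (adjusted p 0.0045) and without CL78 for CP (adjusted p 0.00759). STEAP2 stayed DEG whichever library was left out, and FTH1, PSAP and STEAP1 reached at most 0.0344. FTH1 lost the call in all 8 reduced comparisons, with a lowest adjusted p of 0.0113.

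BCL2, the inhibitor of apoptosis, rose from 56.4 ± 11.6 CPM to 165 ± 55.4 CPM (log2 fold change 1.54, SE 0.26, adjusted p = 0.00695) as the 1 DEG of 38 detectable survival genes. CREB3L2, a transcription factor of the secretory pathway, rose from 126 ± 25.6 CPM to 271 ± 27.9 CPM (log2 fold change 1.10, SE 0.18, adjusted p = 0.0074) as the 1 DEG of 32 detectable endoplasmic reticulum genes. MMP2, gelatinase A, went from 263, 272, 353 and 140.5 CPM to 1184, 1424, 971 and 1326 CPM (log2 fold change 2.25, SE 0.28, adjusted p = 0.00255). SERPINB7, a serine protease inhibitor, rose (log2 fold change 5.69, SE 0.94, adjusted p = 0.00698; log2 fold change 6.80 without CL78), and MMP8, a neutrophil collagenase, fell (log2 fold change -6.51, SE 0.81, adjusted p = 0.00251; log2 fold change -7.68 without PL41). With MMP2 they made up the DEG of 37 detectable protease genes. All 5 lost the call in at least 1 reduced comparison (adjusted p at most 0.0125 for MMP2, 0.0258 for BCL2, 0.0283 for CREB3L2, 0.0303 for SERPINB7 and 0.0126 for MMP8). Of 29 detectable cell cycle genes none was a DEG by the quasi-likelihood test, with 9 at an unadjusted p under 0.05, 4 (3 higher and 1 lower) by the likelihood ratio test and 5 by DESeq2. Of 18 detectable genes of lysophosphatidic acid and sphingosine 1-phosphate none was a DEG either, with 4 at an unadjusted p under 0.05 and 1 by each of the other tests.

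**Figure D3:**
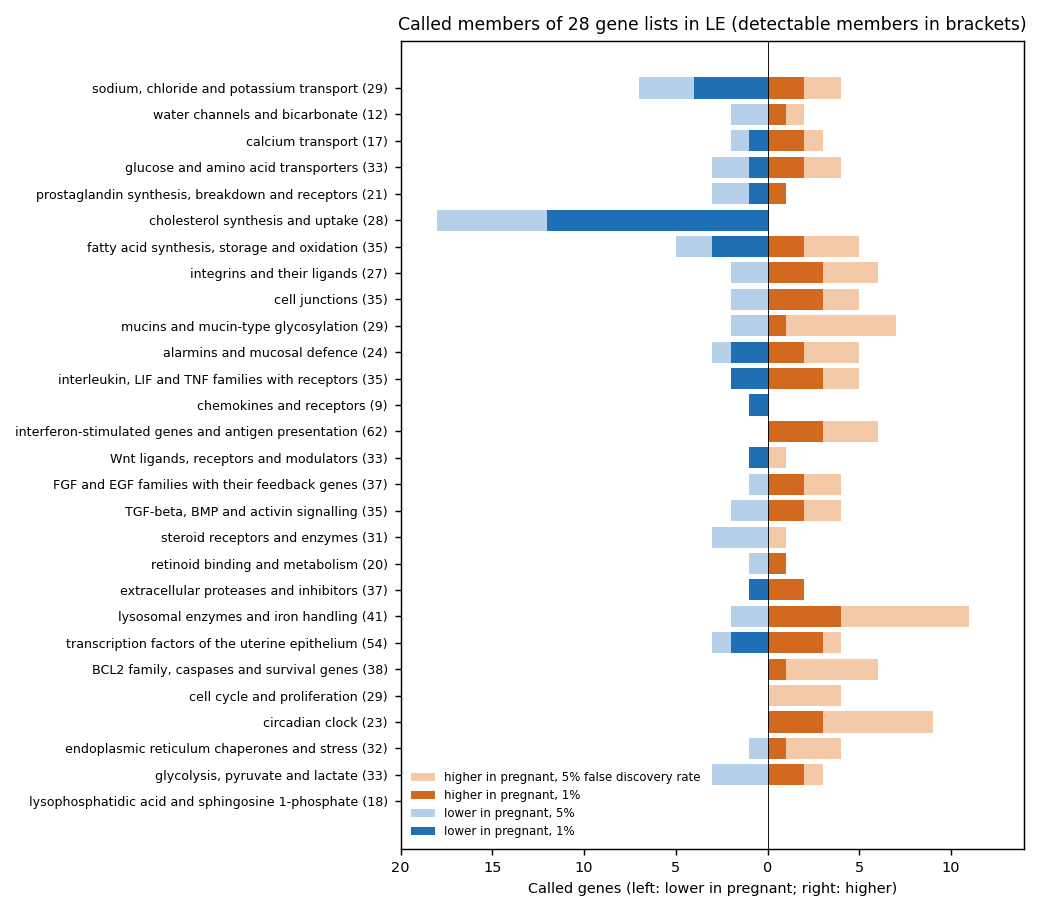
Number of DEG in each of the 28 gene lists in LE (horizontal axis, higher in pregnant to the right in orange, lower to the left in blue), in dark shades at a false discovery rate of 1% and in light shades at 5%, with the number of detectable members in brackets. The cholesterol list stands out to the left with 12 at 1% and 18 at 5%, while the clock and lysosome lists reach furthest to the right at 5%, with 9 and 11.

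The genes with the largest changes include several outside these lists. EMB, or embigin, a membrane glycoprotein that escorts lactate transporters to the cell surface, stood at 10.6, 13.7, 21.2 and 16.1 CPM in cyclic and 2574, 4635, 650.4 and 1778 CPM in pregnant LE, 157-fold higher (log2 fold change 7.29, SE 0.66, adjusted p = 0.00068). POF1B, an actin-binding protein of epithelial junctions, rose from 0.264, 0.869, 0.572 and 0.24 CPM to 33.8, 37.98, 46.2 and 25.1 CPM (log2 fold change 6.09, SE 0.38, adjusted p = 7.11e-05). Both were higher in each pregnant gilt by more than an order of magnitude, and both stayed DEG whichever library was left out, as did ABCA12, a lipid transporter of the epidermis that had 1 count in cyclic LE and 25.9, 7.08, 9.25 and 14.97 CPM in pregnant LE. IGFBP2, which binds insulin-like growth factors, stood at 0, 0.652, 0.286 and 1.68 CPM and 82.1, 66.6, 9.11 and 27.3 CPM (log2 fold change 6.02, SE 0.91, adjusted p = 0.00489; up to 0.0219 with a library left out, and a log2 fold change of 6.98 without CL78). KNG1, the kininogen precursor, had 1 count in cyclic LE and 7.83, 18.3, 1.57 and 9.44 CPM in pregnant LE (up to 0.038). C13H21orf62, a gene of unknown function, had none in cyclic LE and 10.3, 3.86, 5.26 and 10.7 CPM in pregnant LE, at least 37.98-fold higher (up to 0.0214).

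On the other side, CHRNA7, a subunit of nicotinic acetylcholine receptors, fell from 18.7, 57.4, 15.2 and 118 CPM to 1.08, 0.322, 0.996 and 1.30 CPM (log2 fold change -5.76, SE 0.81, adjusted p = 0.00378; log2 fold change -4.98 without CL78). NRCAM, a neuronal adhesion molecule, fell from 25.3, 15.9, 46.04 and 34.5 CPM to 1.89, 0.966, 1.28 and 0.976 CPM (log2 fold change -4.52, SE 0.41, adjusted p = 0.000683) and stayed DEG whichever library was left out. RGS4, an inhibitor of G protein signalling, stood at 18.5, 143, 154 and 69.5 CPM and 0.54, 3.54, 4.55 and 4.88 CPM (log2 fold change -4.80, SE 0.75, adjusted p = 0.00581). These 3 genes, all best known from neurons, were below 5 CPM in every pregnant LE library. MFAP5, a protein of extracellular microfibrils, had 10.6, 264, 531 and 442 CPM in cyclic and 2.43, 4.18, 9.68 and 2.60 CPM in pregnant LE (log2 fold change -5.95, SE 1.07, adjusted p = 0.00961; log2 fold change -6.66 without PL41), with CL128 close to the pregnant range. CRYAB, a small heat shock protein, fell from 97.2 ± 96.6 CPM to 5.02 ± 2.41 CPM (log2 fold change -4.22, SE 0.69, adjusted p = 0.00673; log2 fold change -3.24 without CL128), and CL128 was the highest library. NXNL2 and GPR83, the remaining genes of the 12 largest falls, had 3 counts each over the pregnant libraries and 212 and 261 over the cyclic ones. With a library left out, the adjusted p of these genes other than NRCAM reached at most 0.0363, that of MFAP5.

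**Figure D4:**
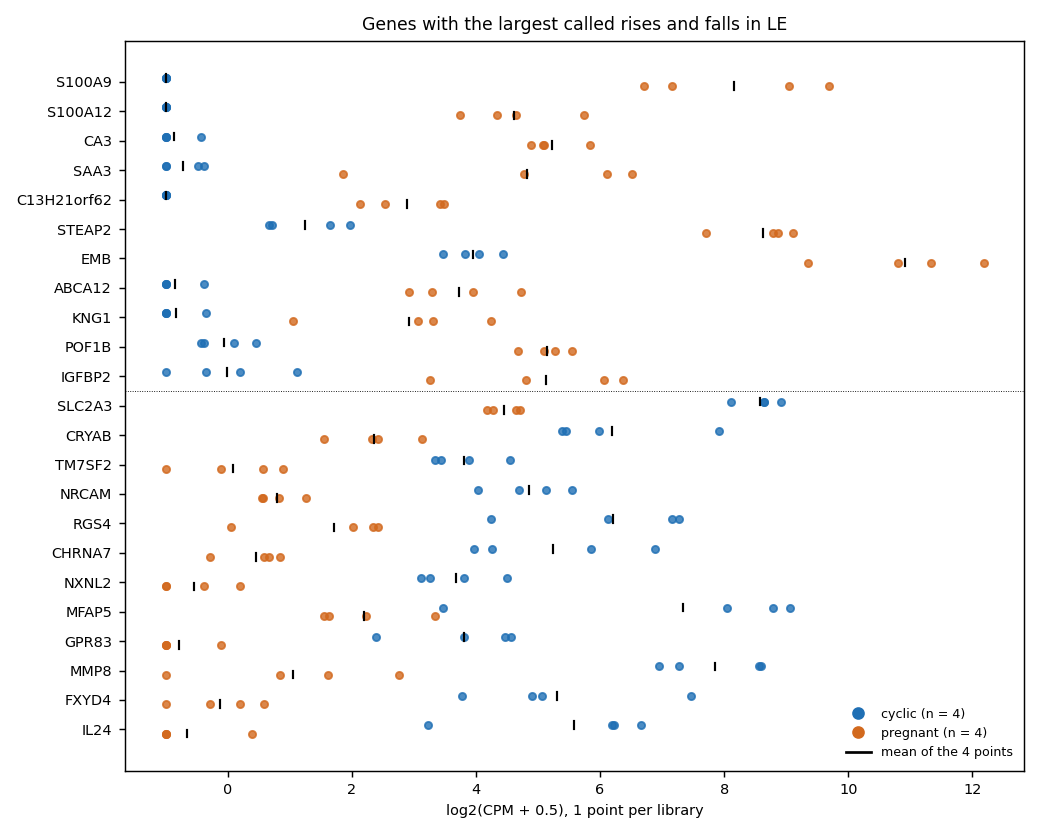
Log2(CPM + 0.5) in each LE library (horizontal axis) of 11 of the 12 DEG with the largest rise and, below the dotted line, the 12 with the largest fall, cyclic in blue and pregnant in orange, with the mean of each group as a black tick. In each gene the orange and blue points are separate; points at -1 are libraries with no count.

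Among the most strongly counted DEG, NFE2L2 (NRF2), the regulator of the antioxidant response, rose from 329, 492, 515 and 549 CPM to 1059.8, 1665, 1437 and 1571 CPM (log2 fold change 1.60, SE 0.23, adjusted p = 0.00375). ANK2, an ankyrin that anchors membrane transporters, rose from 427 ± 109.8 CPM to 1702 ± 165 CPM (log2 fold change 1.99, SE 0.22, adjusted p = 0.0016) and stayed DEG whichever library was left out. APLP2, a relative of the amyloid precursor, rose 2.07-fold, and ENTPD1, the ectoenzyme CD39 that degrades extracellular ATP, fell from 1222 ± 239.7 CPM to 540.0 ± 66.1 CPM (log2 fold change -1.18, SE 0.19, adjusted p = 0.00694). The adjusted p of NFE2L2, APLP2 and ENTPD1 reached at most 0.0312 with a library left out.

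To see where the LE response differed from that of the rest of the endometrium, the effect of pregnancy in LE was compared with the mean effect in GE, BV and S, in a joint fit of 31 libraries over the 9727 genes detectable in all 4 compartments. The difference passed the 1% threshold for 330 genes, or 3.39%. With the gilt as replicate block, since the compartments were cut from the same 8 animals, it passed for 405 genes. Against GE alone there were 106 such genes, against BV alone 253 and against S alone 88, and leaving out single gilts gave between 124 and 270, the lowest numbers being 124 without the gilt of PL39, 135 without that of PL43, 145 without that of CL42 and 166 without that of CL40. Of the 398 DEG of LE, 281 were in this fit and 134 of these differed from the mean of the other compartments (148 with the replicate block). In each of the 134 the difference had the sign of the change in LE. These DEG were chosen on the same LE libraries, which favours both the count and the shared sign. A single other compartment could change as much as LE in the opposite direction. The log2 fold change of SALL1 was -1.29 in LE and 1.48 in BV, and that of HPGD was -2.74 in LE and 2.64 in GE. The remaining 117 DEG were not detectable in every compartment and had no such test.

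WNK1 had the smallest p of all. On the common scale it went from 237 ± 18.5 to 1480.4 ± 63.7 CPM in LE (cyclic to pregnant, mean ± SD, n = 4). In GE it went from 263 ± 52.03 to 701 ± 123 CPM (n = 4 and 3), in BV from 409 ± 81.7 to 333 ± 13.5 CPM and in S from 321 ± 38.8 to 408 ± 75.6 CPM, a difference in effect of 2.15 on the log2 scale (SE 0.19, adjusted p = 5.46e-08, edgeR). FGL2, a fibrinogen-like protein with immune suppressive activity, rose in LE from 19.005, 13.7, 14.3 and 16.3 CPM to 307, 465, 446 and 746 CPM (log2 fold change 4.95, SE 0.31, adjusted p = 7.11e-05). In BV the level of FGL2 went from 263 ± 56.3 to 196 ± 77.9 CPM, so that in cyclic gilts BV held more of it than LE and in pregnant gilts less. EMB likewise went from 15.5 ± 4.57 to 2463 ± 1726 CPM in LE but from 63.7 ± 27.003 to 226 ± 126 CPM in S, and its effect in LE exceeded the mean of the others by 6.14 (SE 0.67, adjusted p = 1.42e-06).

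EIF4E3, a cap-binding protein, rose from 40.9, 40.6, 40.6 and 38.1 CPM to 238, 247, 205 and 207 CPM in LE (log2 fold change 2.48, SE 0.14, adjusted p = 7.11e-05), NDFIP1, an adaptor of ubiquitin ligases, rose from 134 ± 25.2 CPM to 552 ± 125 CPM (log2 fold change 2.05, SE 0.23, adjusted p = 0.0016), and the Ras activator SOS2 and the kinase TLK2 rose 3.26-fold and 3.17-fold. In each of these 4 genes the effect in LE differed from the mean of the other compartments, whose mean log2 fold change lay between 0.13 and 0.59. That mean hides GE for EIF4E3, which was also higher in pregnant GE, at 30.8 ± 9.33 CPM in cyclic and 89.0 ± 17.6 CPM in pregnant gilts. Its log2 fold change was 1.53 in GE, 0.07 in BV and 0.17 in S. EIF4E3, NDFIP1, FGL2 and WNK1 stayed DEG in LE whichever library was left out, while SOS2 and TLK2 reached 0.012 and 0.0116.

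The cholesterol enzymes differed in degree between compartments. HMGCS1 went from 432 ± 46.97 to 55.1 ± 8.68 CPM in LE, from 189 ± 25.1 to 62.8 ± 10.4 CPM in GE and from 64.2 ± 15.4 to 54.3 ± 19.7 CPM in S, so that cyclic LE had the highest mean and the pregnant means of the 3 lay close to each other. The fall of HMGCS1 in LE exceeded the mean of the others (log2 difference -2.21, SE 0.26, adjusted p = 3.15e-06), as did that of CYP51 and MSMO1. For LSS, SC5D, STARD4 and SQLE the difference did not pass 1% (log2 differences from -1.75 to -0.44). NR1D1 and MUC1 are examples of DEG of LE whose difference from the other compartments did not pass the threshold, which does not show that the effects are alike: NR1D1 went from 5.22 ± 2.77 to 49.2 ± 8.77 CPM in GE and from 26.2 ± 6.72 to 76.5 ± 21.2 CPM in S, and its difference was 0.56 (SE 0.40, adjusted p = 0.467), and that of MUC1 was -0.87 (SE 0.82, adjusted p = 0.597).

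**Figure D5:**
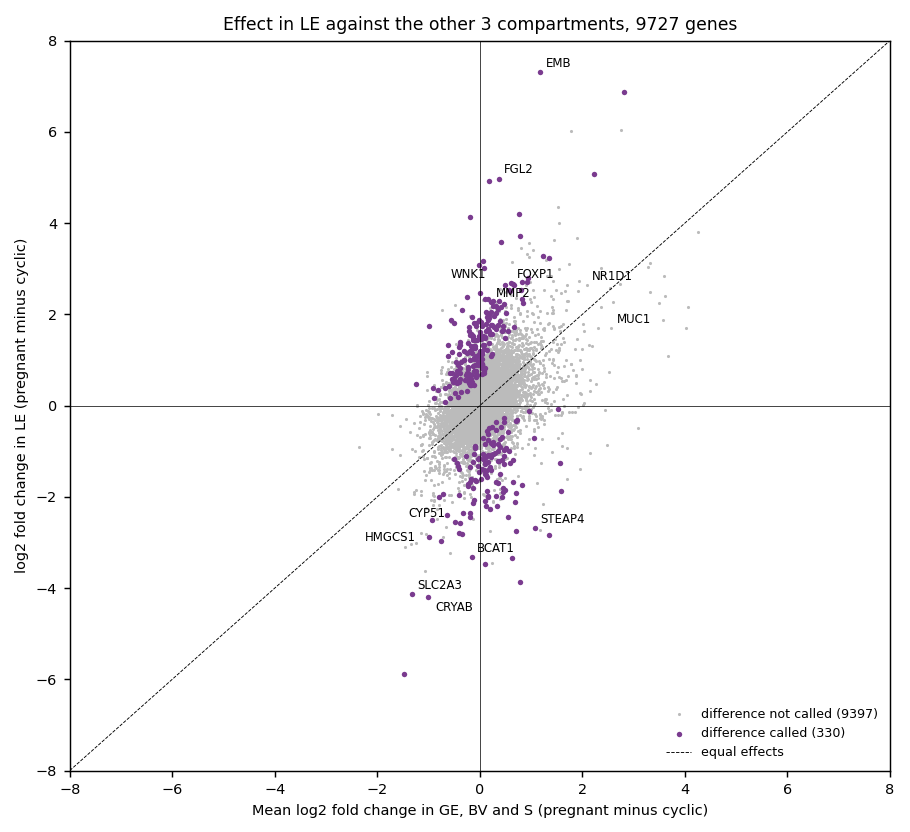
Log2 fold change of 9727 genes in LE (vertical axis) against their mean log2 fold change in GE, BV and S (horizontal axis), pregnant minus cyclic in both, with the 330 genes whose effects differed at 1% in purple and a dashed line where both effects are equal. The purple genes lie along the vertical axis, with EMB and FGL2 near the top and CRYAB and SLC2A3 towards the bottom, while MUC1 lies below the line.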

How the data were processed

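Per the labels and the study's methods, the authors amplified RNA of microdissected cells with a low-input kit, mapped the reads to Sscrofa11.1, removed PCR duplicates and counted them per gene with NCBI annotation; the deposited values used here are raw counts, in a table of all 30185 genes and a filtered table per compartment. The cut-off behind the filter and the strand of counting are not given in the sources used here. The pregnant and cyclic LE libraries were compared on the filtered counts with edgeR 4.0.16 (TMM scaling, glmQLFit, glmQLFTest, Benjamini-Hochberg, threshold 0.01), as n = 4 gilts per group; CPM are TMM scaled. Alternatives were a fit with robust dispersions (the authors name GLM_robust; the likelihood ratio test was chosen here), DESeq2 1.42.0, other scalings and filters, and each library left out; the steps were tested on simulated data. Effects in LE and the mean of GE, BV and S were compared in 1 edgeR fit. Same-numbered libraries come from the same gilt; their deviations from group means correlated with LE at 0.08 to 0.37 (GE), 0.06 to 0.33 (BV) and -0.14 to 0.26 (S). All gene IDs matched RefSeq, and symbols carried by more than 1 record were left out of lists. Genes named are DEG with the 12 largest rises and 12 largest falls (without overlap, at least 5 CPM, no LOC symbol), up to 6 DEG per list by p, list members that were not DEG with the largest changes, the 10 most counted DEG and the 8 DEG with the smallest p against the other compartments. The 28 function lists, 9 marker lists and the genes described were chosen with earlier results of these data known. Some genes and sequences that these rules pick are not reported here. Intervals cover counting error only, and the floor is 3 counts per group.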

Additional observations from a re-analysis of the deposited data

Results flagged for a closer look

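In 212 groups of 4 LE libraries (2 groups for each of 106 genes named), a library stood apart from the rest by Dixon's test in 20. Chance gives about 1 in 20 for normally distributed values. A group in which 1 library alone has counts is always flagged. This was so for CA3, ABCA12, KNG1 and GJB5 in cyclic LE and for IL24 and GPR83 in pregnant LE. The number flagged is thus no measure of departure from chance. CL128 was the library that stood apart in 8 of the 20. It was high in FXYD4 (176 CPM, next 32.9), CRYAB (241, next 63.0), ITGAV (348, next 163), CDH17 (1917, next 80.4) and STEAP4 (255, next 66.9), low in SLC2A1 (77.1, next 102) and BCAT1 (2177, next 3182), and it held the count of ABCA12 that cyclic LE had (0.264 CPM). CL78 was high in TRPV6 (112, next 54.4), KLF9 (13.7, next 5.15) and NR1D1 (8.39, next 3.43), low in EIF4E3 (38.1, next 40.6), and held the count of CA3 (0.24 CPM, next 0). CL42 alone had a count of KNG1 (0.286 CPM) and GJB5 (0.286 CPM). Among pregnant libraries, PL43 was highest in CA3 (56.6, next 33.8), PL41 in ATP2B4 (140.7, next 106) and GPR83 (0.427, next 0), and PL139 in ACVR1 (158, next 137) and IL24 (0.81, next 0).

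The effect of pregnancy in LE differed from the mean effect in GE, BV and S at 1% for 31 of the 67 genes named that were in the joint fit. Of all 9727 genes in that fit 3.39% did. Most of the 67 were named as DEG of the same LE libraries, and some for the smallest p of this contrast. Their share is raised by that choice. Given as log2 differences (LE minus the others), transport genes differed by 2.15 (WNK1), -2.82 (SLC2A3) and 1.88 (SLC43A2). For the lipid and prostaglandin genes the values were -2.21 (HMGCS1), -2.25 (CYP51), -2.02 (MSMO1), -3.44 (HPGD) and -4.65 (OXTR). Adhesion, matrix and immune genes gave 6.14 (EMB), 1.80 (ITGAV), 2.05 (MMP2), -4.42 (MFAP5), 4.61 (FGL2) and -2.18 (IL17RD). For signalling genes and transcription factors the values were 1.08 (ACVR1), 1.45 (SOS2), 1.53 (TLK2), 1.93 (NDFIP1), 2.07 (FOXP1), 1.10 (NOTCH2), -1.77 (SALL1), 1.53 (BHLHE40), 1.14 (CREB3L2) and 1.09 (NFE2L2). The remaining values were 1.33 (BCL2), -3.17 (BCAT1), -3.18 (CRYAB), 1.52 (DHRS3), 1.39 (PSAP), -3.76 (STEAP4) and 1.91 (EIF4E3). With the gilt as replicate block, OXTR (adjusted p = 0.0294) no longer passed.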

How the results depend on the processing

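The number of DEG in LE, 398 (243 higher, 155 lower), became 1411 (838 and 573) with the robust likelihood ratio test, 1342 (775 and 567) with DESeq2 and 1288 (748 and 540) at 5%. Leaving out 1 library gave 101 to 439 (58 to 297 higher, 36 to 171 lower), lowest without CL40, with counts more than 1.5 times below 398 without CL40, CL42, PL139, PL39 and PL43. Other scalings, filters, thinning and omission of ribosomal RNA genes gave 381 to 481. The difference between LE and the other compartments, 330 genes, was 738 at 5%, 106 against GE alone, 88 against S alone, and 124 to 270 without 1 gilt, and more than 1.5 times below 330 without PL39, PL43, CL42 and CL40; with the gilt as replicate block it was 405. The cause of these shifts was not tested. None of the 106 genes named changed direction under any alternative run on the LE counts. With library totals as the only scaling, 5 of them lost the call and 1 gained it, and with thinning to the smallest library 11 lost it and 1 gained it. With the robust likelihood ratio test 9 gained the call and none lost it. These were CFTR, OXTR, ITGB3, CDH17, MUC4, ESR2, CYP26A1, STEAP4 and CP, the genes described above as not DEG. With DESeq2 7 of them gained it. OXTR did not pass (DESeq2 adjusted p = 0.0194), and CDH17 was given no adjusted p by DESeq2. At this depth a gene without counts in a group of libraries can still be present below about 0.19 CPM in cyclic LE and 0.17 CPM in pregnant LE (3 counts per group).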

Other observations

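The 398 DEG included neighbours on the chromosome. Among 11981 pairs of adjacent detectable genes, both members were DEG in 35, and 31 of these pairs changed in the same direction. Of all genes 3.32% were DEG, 2.02% higher and 1.29% lower in pregnant LE. The numbers to be met in pairs by chance were not computed. Beside the calcium channels and the S100 genes, the pairs include FOXP1 and EIF4E3 on chromosome 13, SERPINB7 and SERPINB11 on chromosome 1, LPCAT2 and MMP2 on chromosome 6, and MFAP5 and RIMKLB on chromosome 5, all in 1 direction within each pair. S100A6 and S100A11, which fell, lie on chromosome 4 on either side of S100A12 and S100A9, which rose. In several pairs the annotated genes overlap, and these may share reads.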
